A study of Mus musculus with 6 samples.

Results

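The genes described here are 40 mitotic genes that are reported targets of repression through P53 and the DREAM complex. They were taken by symbol from a given list, by a rule that uses no measured value, although the list was drawn up with earlier results of these data known. All 40 were found among the 24421 rows of the deposited count table, and all 40 were among the 15584 genes that passed the filter on low counts and were tested. RNA came from heads of E9.0 mouse embryos. There were 3 WT libraries (*Snrpb* +/+) and 3 libraries of *Snrpb* ncc+/- embryos, called Het or mutant. In the mutants the *loxP*-flanked part of 1 copy of *Snrpb* was deleted by *Wnt1-Cre2*. *Snrpb* encodes a core protein of the spliceosome. Each library was a pool of a pair of heads of 1 genotype with similar somite numbers, and no embryo was treated. The methods describe the mice as a mix of CD1 and C57BL/6J, while the labels give C57BL/6 as strain and CD1 as cell line for all 6 libraries. *Wnt1-Cre2* acts in the neural tube and neural crest, so the surface ectoderm, mesoderm and blood of a mutant head keep both copies. Whether any WT embryo carried the transgene is not given in the sources used here. Because heads were sequenced in bulk, fewer cells of a type and less RNA per cell cannot be told apart, and *P*-values measure the spread between these pools.

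P53 is a transcription factor that responds to cell stress. It activates *Cdkn1a*, whose product P21 inhibits cyclin-dependent kinases. The pocket proteins encoded by *Rbl1* and *Rbl2* then stay unphosphorylated and join E2F4 and the MuvB proteins to form DREAM. This complex represses cell cycle genes, not only those used late in the cycle. DREAM meets many promoters of the late genes at a short element called the cell cycle genes homology region (CHR), which the MuvB subunit LIN54 binds. A CCAAT box bound by NF-Y often lies beside it. In the early head the neuroepithelium and neural crest divide rapidly and use these genes in every cycle.

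Because the CHR ties these genes to DREAM, their promoters are shown first. RefSeq windows of 300 bases (mm10), from 250 before to 50 after the gene start, were found for 33 of the 40 genes. A CHR was searched as TTTGAA or TTCGAA and a CCAAT box as CCAAT, each on both strands. In the stretches printed, no CHR match shares a base with a CCAAT match. A CHR was found in 23 of 33 windows (69.7%), against 21.7% of the 27025 genes with such a window. A CCAAT box was found in 69.7% of the members' windows and 41.1% of those of all genes, and both in 63.6% and 8.61%. The stretches below are from *Top2a*, which had the smallest *P* of the members and whose window held 4 CHR matches, and from genes of other roles. The last has a CCAAT box and no CHR. Capitals mark the CHR and CCAAT letters, on either strand, and each sequence reads 5' to 3' along the gene's own strand.
Top2a, chr11:99024190-99024349, minus strand, chromosome topology: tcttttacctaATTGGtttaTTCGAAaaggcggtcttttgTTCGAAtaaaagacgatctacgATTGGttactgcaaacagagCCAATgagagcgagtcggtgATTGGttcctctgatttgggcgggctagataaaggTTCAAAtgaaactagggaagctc
Cdk1, chr10:69352913-69353002, minus strand, mitotic entry: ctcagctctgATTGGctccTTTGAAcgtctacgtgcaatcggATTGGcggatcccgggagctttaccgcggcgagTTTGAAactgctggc
Cdc20, chr4:118437344-118437433, minus strand, anaphase onset: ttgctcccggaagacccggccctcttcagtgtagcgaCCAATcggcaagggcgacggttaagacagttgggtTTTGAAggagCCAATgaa
Kif11, chr19:37376292-37376381, plus strand, spindle motor: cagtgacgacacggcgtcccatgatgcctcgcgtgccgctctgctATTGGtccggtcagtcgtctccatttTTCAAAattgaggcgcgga
Espl1, chr15:102296203-102296292, plus strand, separase: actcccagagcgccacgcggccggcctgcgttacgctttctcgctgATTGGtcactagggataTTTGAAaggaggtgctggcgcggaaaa
Cenpe, chr3:135212473-135212562, plus strand, kinetochore motor: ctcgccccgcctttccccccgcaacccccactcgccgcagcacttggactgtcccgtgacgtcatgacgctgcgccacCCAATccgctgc

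The windows of *Kif11* and *Espl1* held 1 CHR match each. The window of *Ccnb1* had none of the CHR letters, which says nothing of sequence outside it. A match is a description of letters and not a measured binding site.

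Reads counted per library lay between 36378803 and 74909774, and every member had between 1408 and 70004 counts in each library. Levels are given in CPM, counts scaled by library size and TMM factor. The targeted gene, *Snrpb*, had a mean of 427 ± 12.2 CPM over the WT libraries (SD, n = 3) against 426 ± 12.5 over the mutant libraries (SD, n = 3), with a log2 fold change of -0.004 (SE 0.039). In younger embryos with the deletion made by *β-actin-Cre*, the paper reports a shorter transcript and a significant reduction of *Snrpb* by quantitative RT-PCR. In the heads used here, cells without *Wnt1-Cre2* keep both copies. Counts per gene do not separate the shorter transcript from the intact one, so they do not measure loss of the intact transcript alone. Why no fall was seen in these counts was not tested. The summed CPM of markers of the head neuroepithelium (8 of 8 tested, 376 to 448 over the 6 libraries) and of neural crest and mesenchyme (8 of 8, 256 to 334) showed the labelled tissue. WT replicate 1 stood apart in markers of other tissues, with 24.8 CPM for 5 visceral endoderm genes against 4.92 to 6.18 in the other libraries, and 6.81 CPM for 6 cardiac genes against 21.8 to 78.7. Results without that library are given for some members and not for all that differ.

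Most of the mitotic genes lay slightly lower in mutant heads. Of the 40, 36 had a log2 fold change below 0 (90%), where 49.8% of all tested genes did, and 32 had one with library size in place of TMM. These signs are not 40 independent observations, since the members moved together between pools. In WT replicate 3 alone, 30 of the 40 lay at or above the WT mean. The members' median log2 fold change was -0.06, and the middle of their distribution ran from -0.09 to -0.04. The median of all tested genes was 0.0004 with the middle from -0.07 to 0.08. The differences were small: 32 of 40 were within 0.1 of 0 on the log2 scale, where 9232 of all 15584 tested genes were. None passed an adjusted *P* of 0.05 in edgeR's quasi-likelihood test, which called 0.00642% of all genes, so the genes are called mitotic here and not repressed. At an unadjusted *P* of 0.05, 3 members (7.5%) were lower (*Top2a*, *Bub1* and *Aurkb*), where 4.09% of all genes were, and 0 were higher, where 4.34% of all genes were. That count of 3 depended on the libraries, with 7 without WT replicate 1, 8 without WT replicate 2, 5 without Het replicate 1 and 2 without Het replicate 2. Over all tested genes the count moved too, from 637 of 15584 with all libraries. Without those libraries, in the same order, it was 718 of 15967, 969 of 15548, 544 of 15960 and 364 of 15506. DESeq2 called 1 member lower, *Top2a*, where it called 0.216% of the genes given an adjusted *P*.

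In 6 members (15%) every mutant library lay below every WT library: *Ccna2*, *Aurkb*, *Melk*, *Bub1*, *Kif11* and *Top2a*. That held for 6.92% of all genes. In 1 member (2.5%), *Plk4*, every mutant library lay above every WT library, which held for 8.32% of all genes. With 3 libraries against 3, the exact two-sided permutation test cannot give a *P* below 0.1, the value for each of these genes. The standard errors of the members had a median of 0.045 on the log2 scale, and their 95% intervals a median width to either side of 0.10. For 33 of the 40 the whole interval lay between -0.25 and 0.25, which held for 6845 of all 15584 tested genes. The standard errors of all tested genes had a median of 0.087. This share, and that of values within 0.1 of 0, therefore compare genes of unlike precision.

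**Figure D1:**
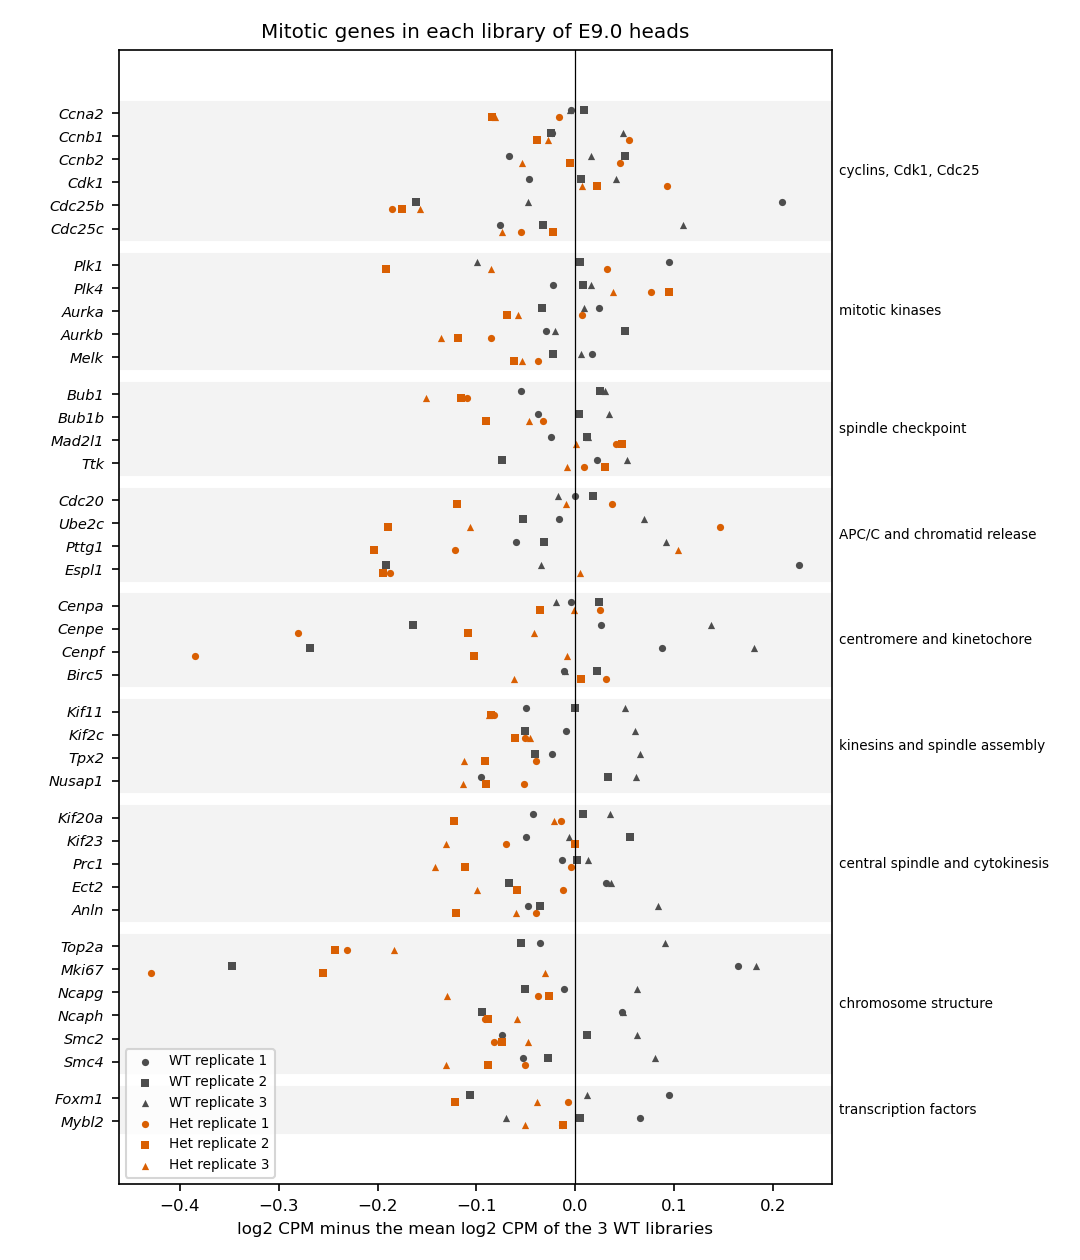
Each row is 1 of the 40 mitotic genes, and points show log2 CPM in each of the 6 libraries minus the mean log2 CPM of the 3 WT libraries (grey, WT; orange, Het; circle, square and triangle, replicates 1, 2 and 3). Most orange points lie left of 0, and *Mki67*, *Cenpf*, *Cenpe*, *Espl1* and *Cdc25b* spread widely within the groups.

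The same values were also summarised library by library, which restates the lean and adds no independent support. The median of the 40 deviations from the WT mean was -0.02, -0.02 and 0.04 on the log2 scale in WT replicates 1, 2 and 3, and -0.04, -0.09 and -0.06 in the mutants. The groups did not overlap, and the closest were WT replicate 2 and Het replicate 1. The same median over all tested genes lay between 0.0008 and 0.008 in the libraries, and there the groups overlapped. Members below the WT mean numbered 27, 22 and 10 in the WT libraries and 28, 35 and 35 in the mutant libraries. Summed over all members, the level averaged 8504 ± 314 CPM for WT and 7974 ± 90.3 CPM for Het (SD over 3 libraries), with the WT libraries between 8199 and 8828 and the mutant libraries between 7878 and 8057. These sums are led by *Top2a*, which alone gave more than any other member. The other mitotic genes, a further list described below, summed to 8336 to 8829 CPM in WT and 8184 to 8192 in mutants, also without overlap. Genes of G1/S and replication summed to 8493 to 8774 CPM in WT and 8308 to 8507 in mutants, with overlap.

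Markers of sex and of other cell types were measured in the same libraries. None of the Y-linked or erythroid genes, and 1 of the 7 neuronal genes (*Elavl3*), reached an unadjusted *P* of 0.05 in edgeR. All 4 tested Y-linked genes of 6 listed had positive log2 fold changes, and they summed to 98.8, 120 and 62.8 CPM in WT and 173, 228 and 111 in mutants, with Het replicate 3 below WT replicate 2. With the level of the Y-linked genes as a covariate, the median of the members was -0.02 and 26 of 40 were below 0. Most mutant libraries lay above every WT library in that level, so this fit cannot cleanly tell it apart from genotype. All 7 neuronal markers had negative log2 fold changes (median -0.42), and their summed CPM was 107 to 148 in WT and 97.1 to 113 in mutants, with none of them at 0. The highest of these sums was that of WT replicate 1. The 6 erythroid markers ranged from 874 to 1487 CPM in WT and from 884 to 1208 in mutants. All 6 had negative log2 fold changes (median -0.11). Of head neuroepithelium markers 7 of 8 were below 0 (median -0.10), and of neural crest and mesenchyme 2 of 8 (median 0.02). All 5 surface ectoderm and all 6 cardiac markers were above 0 (medians 0.12 and 0.65). Below 0 were all 5 visceral endoderm and 4 of 5 endothelial markers (medians -0.96 and -0.04). No gene of these lists reached an unadjusted *P* of 0.05 in edgeR. The part of these genes or cells in the members' differences was not tested beyond that covariate.

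**Figure D2:**
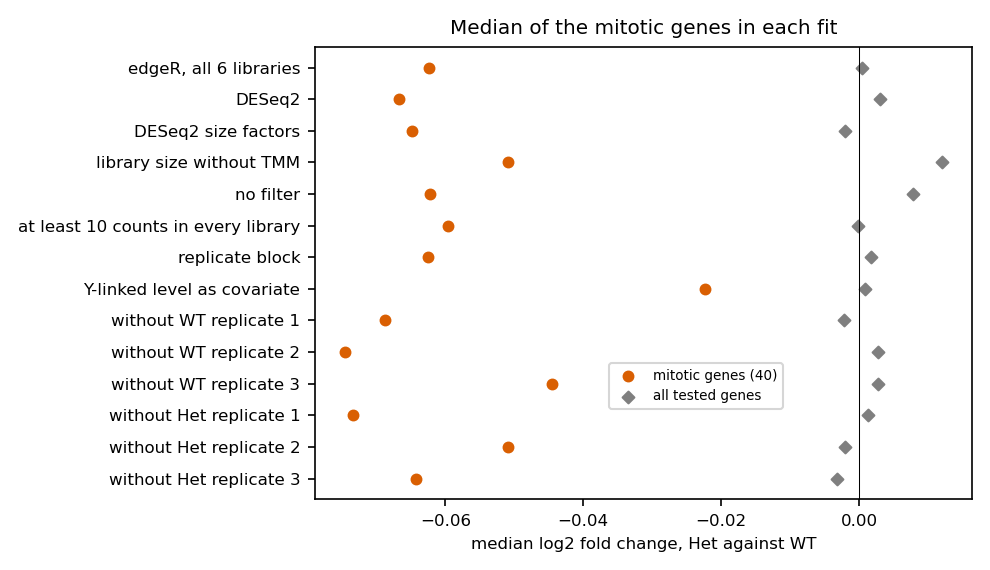
Points give the median log2 fold change of the 40 mitotic genes (orange circles) and of all tested genes (grey diamonds) in each fit, with 1 fit per row. The members' median lies between -0.07 and -0.04 in every fit shown but the one with the Y-linked covariate, where it is -0.02, and the median of all genes reaches 0.01 at most, with library size and no TMM.

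Entry into mitosis is driven by CDK1 with cyclin A or B, after CDC25 phosphatases remove its inhibitory phosphates. In this group 5 of 6 had log2 fold changes below 0, with a median of -0.03. *Ccnb1*, the B cyclin with the highest level of the group, was at 324, 324 and 340 CPM in WT and 342, 320 and 323 in mutants. The groups overlapped, and its log2 fold change was -0.004 with a 95% interval from -0.10 to 0.09. *Cdk1* was at 223, 232 and 237 CPM in WT and 246, 234 and 232 in mutants. Its log2 fold change of 0.04 (interval -0.05 to 0.13) had the opposite sign to most members. *Cdc25b* was at 56.6, 43.8 and 47.4 CPM in WT and 43.1, 43.4 and 43.9 in mutants, for a log2 fold change of -0.18 (SE 0.087). WT replicate 1 was high and WT replicate 2 lay among the mutants, and the value was -0.07 without WT replicate 1 and -0.26 without WT replicate 2 (edgeR unadjusted *P* = 0.213 and 0.00986). *Ccna2* was at -0.06, *Cdc25c* at -0.05 and *Ccnb2* at -0.006 on the same log2 scale. With library size in place of TMM, *Ccnb1* and *Ccnb2* turned to 0.0073 and 0.0057.

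The mitotic kinases drive centrosome, spindle and chromosome events. *Aurkb*, the kinase of the chromosomal passenger complex, which corrects faulty attachments, was at 143, 151 and 144 CPM in WT and 138, 135 and 133 in mutants. All 3 mutants lay below the lowest WT library. The log2 fold change was -0.11 (SE 0.039, edgeR adjusted *P* = 0.481). Its edgeR unadjusted *P* was 0.0182, and rose above 0.05 without WT replicate 2, Het replicate 2 or Het replicate 3 (0.0774, 0.0521 and 0.0605). *Aurka*, which works at the spindle poles, was at 158, 152 and 156 CPM in WT and 156, 148 and 149 in mutants, and these ranges overlapped (log2 fold change -0.04). *Plk4*, the kinase that starts centriole duplication, was at 115, 117 and 118 CPM in WT and 123, 125 and 120 in mutants. Its log2 fold change of 0.07 (SE 0.038) was the highest among the members. *Plk1* gave -0.08 and *Melk* -0.05.

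The spindle checkpoint holds cells before anaphase until every chromosome is attached. *Bub1*, its kinase at the kinetochore, was at 238, 252 and 253 CPM in WT and 230, 229 and 223 in mutants. The mutants lay below all WT libraries, and the fitted level was lower by 8.37%. The log2 fold change was -0.13 (SE 0.039, edgeR adjusted *P* = 0.437). *Bub1b*, which encodes the checkpoint protein BUBR1, was at 327, 337 and 344 CPM in WT and 328, 315 and 325 in mutants, with overlap and a log2 fold change of -0.06. The other two, *Mad2l1* (0.03) and *Ttk* (0.01), had positive log2 fold changes, so the checkpoint genes did not share a sign.

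Release of the sister chromatids follows when the anaphase-promoting complex, with CDC20, marks securin (*Pttg1*) for destruction and separase (*Espl1*) is freed. All 4 genes of this group had values below 0, with a median of -0.06. *Espl1* was at 135, 101 and 113 CPM in WT and 101, 101 and 116 in mutants. WT replicate 1 was the sole library above all mutants, and the log2 fold change of -0.13 (SE 0.112) went to -0.01 without it and to -0.22 without WT replicate 2 (edgeR unadjusted *P* = 0.857 and 0.0456). *Cdc20* was at 326, 331 and 322 CPM in WT and 335, 300 and 324 in mutants, with overlap (log2 fold change -0.03, interval -0.13 to 0.07). Per kilobase of exon, *Cdc20* had the highest level of all members, 174.8 CPM per kb in WT, and *Cdc25c* the lowest, 8.30. *Ube2c*, the E2 enzyme of the complex, gave -0.04 and *Pttg1* -0.07.

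Centromere and kinetochore genes link chromosomes to microtubules. *Cenpe*, a kinesin motor of the kinetochore, was at 229, 201 and 248 CPM in WT and 185, 209 and 219 in mutants, for a log2 fold change of -0.14 (SE 0.089). *Cenpf*, a large kinetochore protein, was at 365, 285 and 390 CPM in WT and 263, 320 and 342 in mutants, for -0.17 (SE 0.149). In both genes WT replicate 2 lay among the mutants and Het replicate 1 was the lowest library. Without WT replicate 2 the values were -0.22 for *Cenpe* and -0.29 for *Cenpf* (edgeR unadjusted *P* = 0.0171 and 0.0354), and without Het replicate 1 they were -0.08 and -0.07. *Cenpa*, the histone variant that marks centromeres, gave -0.004, and *Birc5* (survivin), of the passenger complex, gave -0.008, and both turned positive (0.0069 and 0.0033) with library size in place of TMM. Here the negative median of -0.08 came from the pair with the widest spread.

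**Figure D3:**
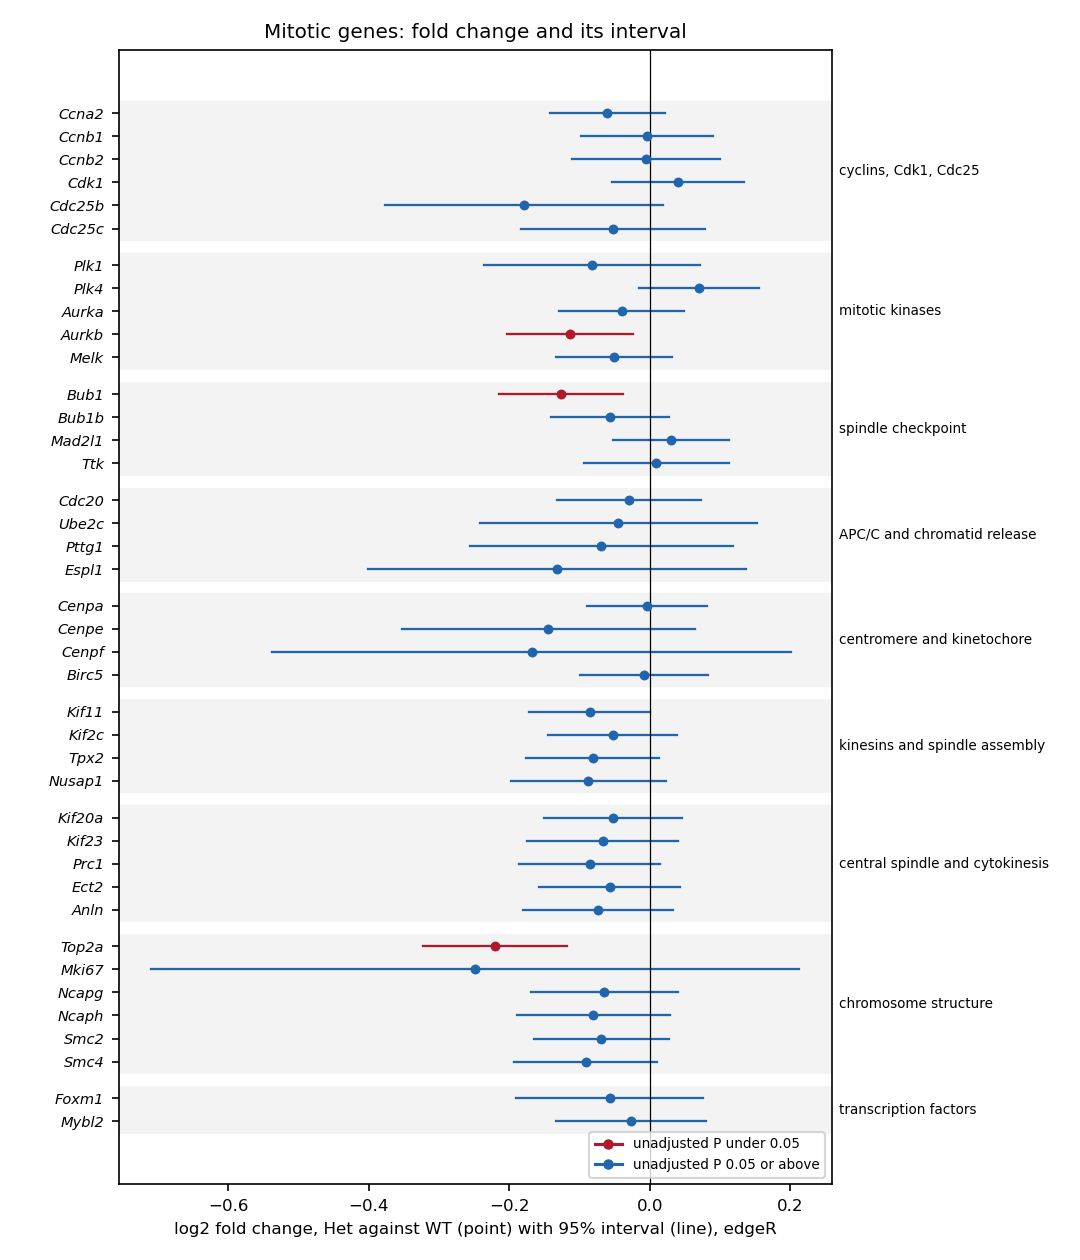
Each row is a mitotic gene, with its log2 fold change of Het against WT (point) and 95% interval (line) from edgeR's quasi-likelihood fit, grouped by role. Red marks an unadjusted *P* under 0.05, which *Aurkb*, *Bub1* and *Top2a* reached, and the intervals of the other 37 members include 0.

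Motors and assembly factors build the bipolar spindle. All 4 were below 0 and lay within a narrow range, -0.09 to -0.05. *Kif11*, the motor that pushes the poles apart, was at 283, 293 and 303 CPM in WT and 277, 276 and 276 in mutants. The mutant libraries were nearly equal and all below WT. The log2 fold change was -0.09 (SE 0.038, edgeR adjusted *P* = 0.592). *Tpx2*, which activates Aurora A on the spindle, was at 301, 298 and 320 CPM in WT and 298, 287 and 283 in mutants, with Het replicate 1 within the WT range. *Kif2c*, a microtubule depolymerase, gave -0.05, and *Nusap1*, a microtubule-bundling protein, gave -0.09.

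The central spindle and cytokinesis genes separate the daughter cells. All 5 were below 0, from -0.09 to -0.05. *Prc1*, which bundles the central spindle, was at 174, 176 and 177 CPM in WT and 175, 162 and 159 in mutants, where Het replicate 1 lay within WT and the others below it (log2 fold change -0.09, SE 0.044). *Kif20a*, a kinesin of the central spindle, was at 227, 235 and 239 CPM in WT and 231, 214 and 230 in mutants, with overlap (-0.05). *Kif23*, *Ect2* and *Anln*, which position and build the contractile ring, gave -0.07, -0.06 and -0.07.

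Among genes of chromosome structure all 6 were below 0, with a median of -0.09. *Top2a* (chr11:98992943-99024189, minus strand) encodes topoisomerase IIα, which untangles DNA before the chromatids part. It was at 1063, 1049 and 1160 CPM in WT and 929, 921 and 960 in mutants, or 1091 ± 60.6 against 936 ± 20.4 (SD, n = 3 each). Every mutant library lay below every WT library. The log2 fold change was -0.22 (SE 0.045, 95% interval -0.32 to -0.12), a fitted level lower by 14.2%. Its edgeR unadjusted *P* was 0.000879 and its adjusted *P* 0.309, while DESeq2 gave -0.22 (SE 0.056) with an adjusted *P* of 0.0172. Over all fits made, its adjusted *P* ran from 0.0172 to 0.999, the latter with the Y-linked covariate, where the value was -0.13.

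*Mki67*, the proliferation marker whose protein coats mitotic chromosomes, had the lowest fold change of the members and also the widest error. It was at 589, 413 and 597 CPM in WT and 390, 440 and 514 in mutants. WT replicate 2 and Het replicate 1 were the lowest of their groups, and the groups overlapped. The log2 fold change was -0.25 (SE 0.182, interval -0.71 to 0.21). It ranged from -0.16 without Het replicate 1 to -0.40 without WT replicate 2, and the latter had an edgeR unadjusted *P* of 0.00997 (adjusted 0.325). *Mki67*, *Cenpf* and *Cenpe*, singled out after their values were seen, have exonic lengths of 10061, 15433 and 8620 bases, and in each the same libraries were low. *Top2a*, with 9013 bases, was not low in WT replicate 2 to that degree, and its highest WT level was 1.11 times its lowest, against 1.44 for *Mki67*. That ratio was 1.09 for *Anln* (9063 bases), 1.34 for *Espl1* (8749), 1.03 for *Mad2l1* (8390) and 1.02 for *Prc1* (8225). A part of length in these levels was not tested. The condensin genes *Smc2* (-0.07), *Smc4* (-0.09), *Ncapg* (-0.06) and *Ncaph* (-0.08), which compact chromosomes, lay close together on the log2 scale.

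*Foxm1* and *Mybl2* encode transcription factors that switch mitotic genes on with MuvB. *Foxm1* was at 86.3, 75.1 and 81.5 CPM in WT and 80.4, 74.3 and 78.7 in mutants (log2 fold change -0.06, SE 0.059). *Mybl2* was at 78.5, 75.3 and 71.5 CPM in WT and 74.3, 74.4 and 72.4 in mutants (-0.03, SE 0.047). The groups overlapped in both.

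**Figure D4:**
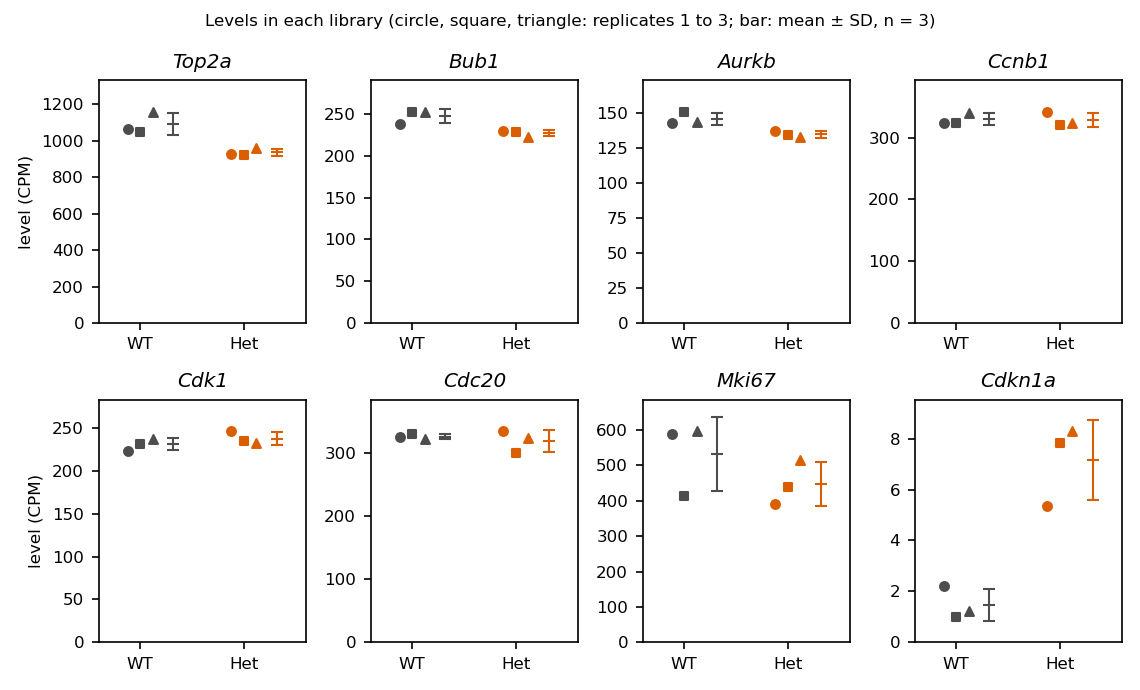
CPM in each library is shown for 8 genes, with WT in grey, Het in orange, and bars for mean ± SD (n = 3 each). The groups are apart in *Top2a*, *Bub1*, *Aurkb* and *Cdkn1a* and overlap in *Ccnb1*, *Cdk1*, *Cdc20* and *Mki67*, and every axis starts at 0.

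Members with a CHR in the window had a median log2 fold change of -0.07 (21 of 23 below 0), and those with a window and no CHR had -0.04 (8 of 10). *Cdk1*, whose stretch is printed above with CHR and CCAAT letters, was among those above 0, and *Cenpe*, with no CHR in its window, was among those furthest below 0. The difference between these groups of genes was not tested. Another annotated gene overlaps 23 of the members, on the opposite strand in 18, among them *Cdc20* (with *Elovl1*) and *Cdc25b* (with *Spef1*). Since the sources used here do not say whether counting was stranded, the counts of such pairs could have been affected. The overlaps are from Gencode M21, while the authors used Gencode M2, so some overlapping genes may not have been in the counting. *Aurkb* and *Bub1* overlap no annotated gene, and *Top2a* overlaps *Gm23451* and *Gm26394*.

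Genes of the P53 and P21 arm were listed for comparison. *Cdkn1a* was at 2.20, 1.00 and 1.22 CPM in WT and 5.35, 7.84 and 8.29 in mutants, with no overlap and a log2 fold change of 2.32 (SE 0.305, edgeR adjusted *P* = 0.182). *Trp53* was at 155 ± 14.3 and 154 ± 7.44 CPM (SD, n = 3 each), for -0.02. Of 18 listed genes of the P53 and P21 arm, 10 were higher (55.6%, against 4.34% of all genes) and 0 lower at an unadjusted *P* of 0.05 in edgeR. DESeq2 called 8 higher, where it called 0.432% of genes higher over the whole table. Besides *Cdkn1a*, the smallest *P*-values belonged to the P53 targets *Phlda3* (1.57), *Eda2r* (2.02), *Ccng1* (1.07), *Pmaip1* (0.58) and *Bax* (0.23), given as log2 fold changes. The list's median was 0.24.

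Of 22 components of DREAM, MuvB and the E2F family, 15 were below 0, with a median of -0.02. At an unadjusted *P* of 0.05 in edgeR, 1 was lower (4.55%, against 4.09% of all genes). That gene, *E2f1*, an activator of S phase genes, was at 28.8 ± 1.73 CPM in WT and 21.6 ± 0.474 in mutants, with a log2 fold change of -0.42 (SE 0.060, DESeq2 adjusted *P* = 6.69e-05, edgeR adjusted *P* = 0.182). *Rbl2*, the pocket protein of DREAM in resting cells, was at 4.45, 4.79 and 4.16 CPM in WT and 5.49, 5.04 and 4.96 in mutants, for 0.20 (SE 0.110). Its groups did not overlap, and its interval ran from -0.04 to 0.45. *Rbl1* gave -0.07, *E2f4* -0.01, *E2f7* -0.10, *Lin54* 0.04 and *Lin9* 0.01.

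A further list of 77 mitotic genes, of which 76 were tested, had a median of -0.04 and 49 genes below 0 (64.5%, against 49.8% of all genes). In it 14 were lower (18.4%, against 4.09%) and 1 higher (1.32%, against 4.34%) at an unadjusted *P* of 0.05 in edgeR. The smallest *P*-values were those of *Kntc1* (-0.25), a checkpoint protein, *Kif15* (-0.20), a spindle motor, *Gtse1* (0.28), a microtubule-associated protein that restrains P53, *Spc24* (-0.18), of the NDC80 complex, and the condensin genes *Ncapg2* (-0.15) and *Ncapd2* (-0.57), all as log2 fold changes. DESeq2 called *Kntc1*, *Kif15* and *Ncapd2* lower and *Gtse1* higher, where it called 0.216% of all genes lower and 0.432% higher. Of 40 genes of G1/S and replication, 30 were below 0 (75%, against 49.8% of all genes), with a median of -0.02. At an unadjusted *P* of 0.05 in edgeR, 5 were lower (12.5%, against 4.09%) and 0 higher (against 4.34%): *Tk1* (-0.21) and *Rrm1* (-0.15) of nucleotide synthesis, and the polymerase genes *Pole* (-0.19), *Pola1* (-0.14) and *Pola2* (-0.15). DESeq2 called none of these 40.

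**Figure D5:**
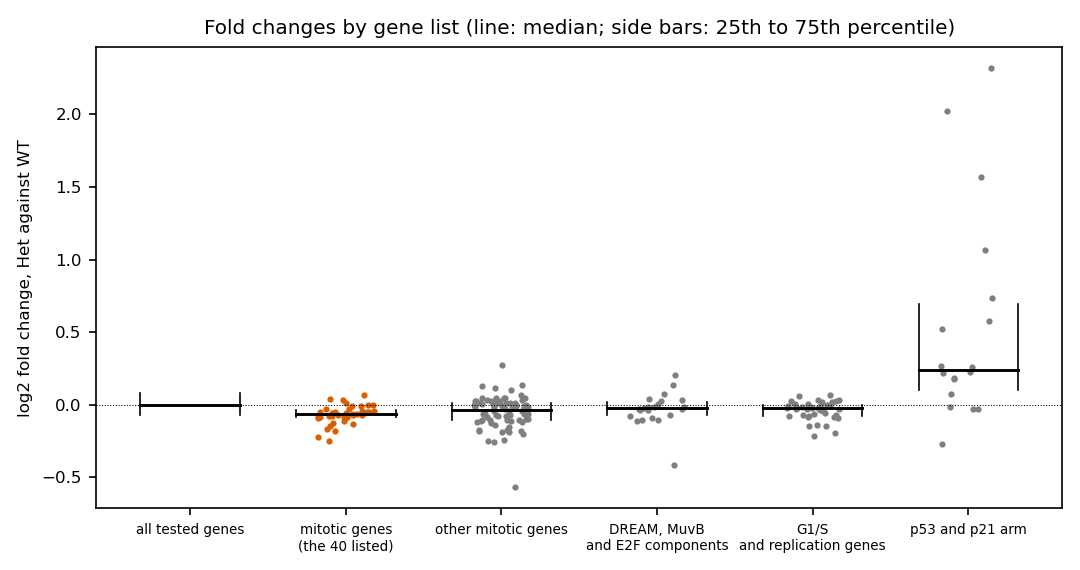
Each point is a gene, placed by its log2 fold change of Het against WT (edgeR), with a line at each list's median and side bars from the 25th to the 75th percentile. The mitotic genes, the other mitotic genes, the DREAM components and the G1/S genes have medians between -0.06 and -0.02, and the P53 and P21 arm has a median of 0.24.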

How the data were processed

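Stranded total RNA libraries, depleted of ribosomal RNA, were made from E9.0 heads. The authors mapped trimmed reads to mm10 with STAR (2.6.1d) and used Gencode M2. For trimming the labels name Trim Galore and the methods CutAdapt, for counting the labels name featureCounts and the methods HTSeq (0.13.5), and the deposited values are raw counts per gene symbol.

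Genes kept by filterByExpr (15584 of 24421) were tested with edgeR (4.0.16, R 4.3.3; TMM, robust quasi-likelihood, two-sided, Benjamini-Hochberg threshold 0.05, all 6 libraries, no covariates). DESeq2 (1.42.0) gave an adjusted *P* for 12976 genes. The steps were tested on simulated data. Members and lists were chosen with earlier results of these data known. Comparison lists come from general knowledge. Values in every library were given for members at unadjusted *P* under 0.05 and, per role, those with the smallest *P* and highest mean CPM; further members were added after their values were seen (*Cdk1*, *Plk4*, *Mki67*). From each list up to 6 genes at unadjusted *P* under 0.05 were named, beside *Snrpb*, *Cdkn1a*, *Trp53*, *E2f1*, *E2f4*, *E2f7*, *Rbl1*, *Rbl2*, *Lin9* and *Lin54*. Gene positions and exonic lengths are from Gencode M21 (mm10), and promoter windows from RefSeq (mm10). Alternatives were DESeq2, other scalings and filters, a replicate block, a Y-linked covariate and leaving out each library.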

Additional observations from a re-analysis of the deposited data

How the results depend on the processing

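Of 280 log2 fold changes of members under other fits of all 6 libraries, 265 kept their sign and side of the threshold, and of 240 under fits without 1 library, 224 did. DESeq2 called 1 member (*Top2a*, -0.22) where edgeR called 0. With library size in place of TMM, the signs turned in *Ccnb1* (0.0073), *Ccnb2* (0.0057), *Cenpa* (0.0069) and *Birc5* (0.0033). With the Y-linked covariate, members lower at an unadjusted *P* of 0.05 numbered 1 in place of 3 and the median was -0.022 in place of -0.062. Over all 15584 tested genes, those lower at that threshold fell as well, from 637 to 237 with the covariate. In that fit *Ccnb1* (0.030), *Ube2c* (0.026), *Pttg1* (0.12), *Cenpe* (0.012), *Cenpf* (0.053), *Kif2c* (0.00022), *Kif20a* (0.0052), *Anln* (0.0058), *Mki67* (0.043) and *Foxm1* (0.0044) turned positive. The cause was not tested.

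Without 1 library, members lower at that threshold ranged from 2 to 8: 7 without WT replicate 1, 8 without WT replicate 2, 5 without Het replicate 1 and 2 without Het replicate 2. The count over all tested genes moved as well, from 364 of 15506 without Het replicate 2 to 969 of 15548 without WT replicate 2. The members' median ranged from -0.075 to -0.045, and those below 0 from 33 to 36. Signs turned in some of these fits for *Ccnb1* (-0.034 to 0.020), *Ccnb2* (-0.042 to 0.020), *Cdc25c* (-0.092 to 0.0029), *Ttk* (-0.027 to 0.035), *Cdc20* (-0.064 to 0.012), *Ube2c* (-0.15 to 0.022), *Cenpa* (-0.019 to 0.010), *Birc5* (-0.028 to 0.013) and *Mybl2* (-0.061 to 0.0020). *Top2a* stayed between -0.25 and -0.17.

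Whether replicate numbers pair the libraries was not clear. Deviations from the group means of same-numbered libraries correlated at 0.17, 0.03 and 0.36. WT replicates 1 and 3 correlated best with the Het library of the same number, and WT replicate 2 with Het replicate 1 (0.04). With the replicate block, the members' median was -0.06, 3 were lower at an unadjusted *P* of 0.05 and 0 passed the adjusted threshold, and the block turned no sign. With 3 pools per group the 95% interval of a member reached 0.10 on the log2 scale to either side at the median, before any adjustment over genes, and this limits which differences could be detected.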
